A study of Homo sapiens with 12 samples.

Results

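The genes described here are known splice targets of TDP43, an RNA-binding protein of the nucleus encoded by TARDBP. They were 29 genes listed by symbol, chosen because loss of TDP43 is known to change the splicing of their transcripts, in many cases by the use of a cryptic exon. All 29 were found among the 27745 genes of the count table, by the gene identifiers that the immunoprecipitation tables pair with the symbols, and among the 60675 genes of those tables. The cells were MDA-MB231, an established line of triple-negative breast cancer. Lentivirus carried a stable hairpin RNA against TDP43 (sh_TDP43), a hairpin against SRSF3 (sh_SRSF3) or a control hairpin (sh_control), with 2 RNA-seq libraries in each group. The labels name 1 hairpin per target and are silent on whether the libraries of a group were separate cultures. The p-values therefore reflect the variation between libraries, and that variation may be technical. RNA immunoprecipitation (RIP), the recovery of RNA with a tagged protein by an antibody to the tag, was done in cells that overexpressed Flag-TDP43 and in cells that overexpressed Flag-SRSF3. Each RIP had 1 library and 1 input library and no test. A combined knockdown was not analysed here.

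TDP43 binds repeats of U and G in introns and keeps the splicing machinery from using nearby cryptic splice sites. When it is lost, cryptic exons enter the transcripts of many genes, and their stop codons or early polyadenylation sites often lower the RNA. SRSF3 is a small protein rich in serine and arginine that commonly helps exons to be included. In neurons, STMN2 and UNC13A are the best studied cryptic exon genes of TDP43, and POLDIP3 and SORT1 are older examples of exons whose use depends on TDP43. The counts sum reads over annotated exons of a gene. They therefore describe the level of a gene's RNA, and the inclusion of a cryptic or alternative exon was not measured.

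Counted reads ranged over 34.46 to 38.33 M per library. TARDBP averaged 32.9 ± 2.23 CPM in sh_TDP43 cells, 105 ± 4.52 CPM in sh_SRSF3 cells and 146 ± 30.8 CPM in sh_control cells (SD, n = 2 each; CPM is reads per gene after scaling to library size by TMM). SRSF3 averaged 184 ± 5.01 CPM in sh_TDP43 cells, 62.9 ± 1.63 CPM in sh_SRSF3 cells and 431 ± 38.9 CPM in sh_control cells. SRSF3 RNA was thus lower in the sh_TDP43 cells too, and every difference of sh_TDP43 from sh_control below comes from cells that differed in both. TARDBP RNA was in turn lower in sh_SRSF3 than in sh_control, with a log2 change of -0.48 (edgeR adjusted p = 0.00326). That change was -0.25 without sh_control replicate 1. The part of the lower SRSF3 or the lower TARDBP in any result was not tested. Summed neuron markers (11 genes, of which 6 passed the filter on low counts and DCX was at 0 in every library) were at 11.78 to 14.41 CPM in sh_TDP43, 28.81 to 29.72 in sh_SRSF3 and 13.59 to 17.69 in sh_control. The 6 markers listed for this line summed to 4754 to 4941 CPM in sh_TDP43, 5308 to 5564 in sh_SRSF3 and 6574 to 6653 in sh_control. AXL made up most of the lower sum in sh_TDP43, at 430 CPM against 1615 in sh_control, while KRT18 was higher in both knockdowns. The 6 luminal markers summed to 155.8 to 160.2, 202.2 to 222.3 and 183.5 to 204.5 CPM in the same order of groups, most of it ERBB2 and XBP1. The 4 haematopoietic markers summed to 1.444 to 2.904 CPM in sh_TDP43, 0.1108 to 0.2704 in sh_SRSF3 and 0.4305 to 0.6262 in sh_control, with HBB at 0 in all. Of these PTPRC alone passed the filter, and it was higher in sh_TDP43 by 1.92 on the log2 scale (edgeR adjusted p = 0.0077). The 3 markers of packaging cells summed to 8.168 to 11.15 CPM in sh_TDP43, 16.01 to 17.7 in sh_SRSF3 and 0.9654 to 1.641 in sh_control, nearly all of it CDH2, and the part of any marker list in the results was not tested.

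The members spanned a wide range of levels, and the low end was mostly neuronal. Per kilobase of annotated exon, which allows genes to be compared, the highest member averaged 38.2 CPM per kb over the 6 libraries. This was AGRN, the gene of the matrix proteoglycan agrin, above 92.2% of the 15026 genes tested. TNFRSF21, which encodes death receptor 6, followed at 34.1 CPM per kb, RANBP1 at 30.3 and POLDIP3 at 30.1. The order of these 4 depended on the group. In sh_TDP43 AGRN at 47.0 stood above TNFRSF21 at 31.8 CPM per kb. In sh_SRSF3 RANBP1 at 40.1 and POLDIP3 at 38.1 stood above AGRN at 26.6, with TNFRSF21 at 10.1 CPM per kb. In sh_control TNFRSF21 at 60.4 stood above AGRN at 41.1, RANBP1 at 35.6 and POLDIP3 at 28.7 CPM per kb. The middle of the order ran through NUP188 at 21.8, SORT1 at 19.3, SETD5 at 18.3 and MADD at 14.7 CPM per kb to INSR at 2.39, which lay above 39.0% of tested genes. Below INSR the order broke: the next member, CYFIP2, was at 0.372 CPM per kb, and UNC13A was at 0.153. All 9 neuronal members lay in this lower range, together with RAP1GAP at 0.116 and EPB41L4A at 0.0729 CPM per kb.

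Of the 9 neuronal members, 5 did not reach the filter on low counts and were not tested. ACTL6B, a neuronal subunit of the BAF chromatin remodeller, had 0 reads in all 4 knockdown libraries, with 8 and 0 reads in sh_control. CELF5, an RNA-binding protein of the brain, had 0 and 4 reads in sh_TDP43, 0 in both sh_SRSF3 libraries, and 6 and 4 in sh_control. STMN2, a regulator of microtubules in axons, had 0 and 6 reads in sh_TDP43, 2 and 2 in sh_SRSF3, and 0 and 2 in sh_control. These counts are at or near the floor. Both reads of a pair could be counted, and 66.3 to 70.8% of the counts of 1 to 10 in each library were even. A count of 0 therefore allows 3 fragments, or 6 reads, which is a level of up to 0.157 to 0.174 CPM and covers counting error only. ELAVL3, a neuronal RNA-binding protein, had 2 and 0 reads in sh_TDP43, 0 and 6 in sh_SRSF3, and 0 in both sh_control libraries. SYT7, a calcium sensor of vesicle release, had 4 and 12 reads in sh_TDP43, 0 and 10 in sh_SRSF3, and 10 and 6 in sh_control. No difference in these 5 genes could be detected at this depth. In the RIP and input libraries ACTL6B and STMN2 were listed at 0 in all 4 libraries of both RIP tables, and CELF5, SYT7 and ELAVL3 were at 0 FPKM (a level scaled to the length of the gene and to the library) in all 4. KALRN and CAMK2B, a guanine exchange factor and a kinase subunit of synapses, passed the filter at under 1 CPM in every library.

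**Figure D1:**
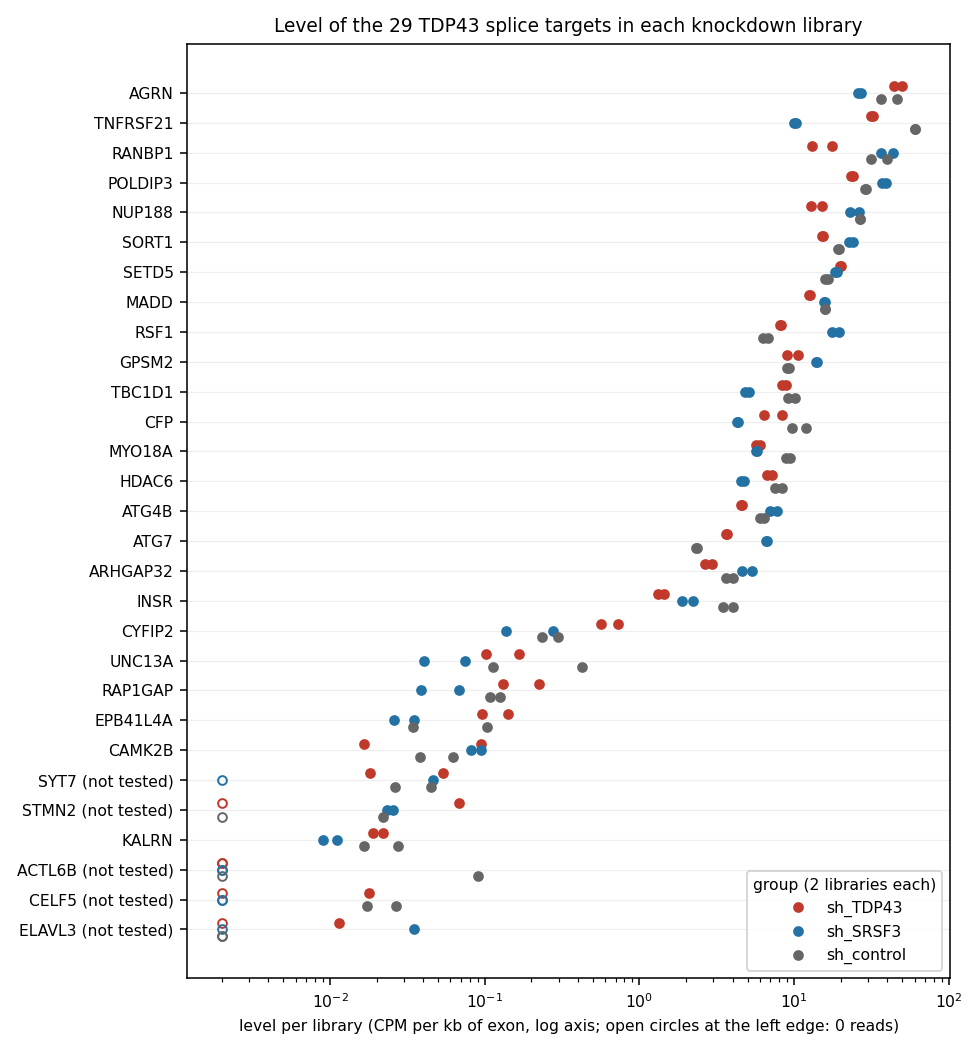
Level of each of the 29 members in each of the 6 knockdown libraries, in CPM per kb of exon on a log axis, with 2 points for each hairpin group and open circles for 0 reads. Members from AGRN at 38.2 to INSR at 2.39 CPM per kb stand apart from CYFIP2 at 0.372 and the genes under it, which include every neuronal member.

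In sh_TDP43 cells 4 of the 24 tested members rose and 11 fell relative to sh_control. With either sh_TDP43 library left out, fewer rises and fewer falls were called among the members, and fewer of each among all genes. INSR, RANBP1, NUP188 and TNFRSF21 fell most, and CYFIP2 and ATG7 rose most. In these bulk libraries less RNA per cell and fewer cells with the RNA cannot be told apart. Calls were at an adjusted p under 0.05 (edgeR quasi-likelihood test, Benjamini-Hochberg over all genes tested). Over all genes 44.8% were called, 20.7% higher and 24.1% lower, against 62.5% of the tested members, 16.7% higher and 45.8% lower, so the higher share was near the background and the lower share above it. The median log2 change was -0.24 over the tested members and -0.0035 over all tested genes. In sh_SRSF3 cells 8 members rose and 8 fell, 33.3% each, where 66.9% of all genes were called, 32.5% higher and 34.4% lower, so both shares were near the background. Without sh_SRSF3 replicate 2, fewer rises were called among the members and among all genes. The median was -0.25 over the tested members and -0.03 over all genes. Both comparisons use the same sh_control libraries. Upper-quartile scaling moved the median of all genes by -0.15 in the sh_SRSF3 comparison and by 0.09 in the sh_TDP43 comparison. Under it 4 members were called higher and 9 lower in sh_SRSF3, where 26.3% of all genes were called higher and 40.1% lower. In sh_TDP43 5 members were then called higher and 10 lower, where 26.3% of all genes were called higher and 19.8% lower.

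**Figure D2:**
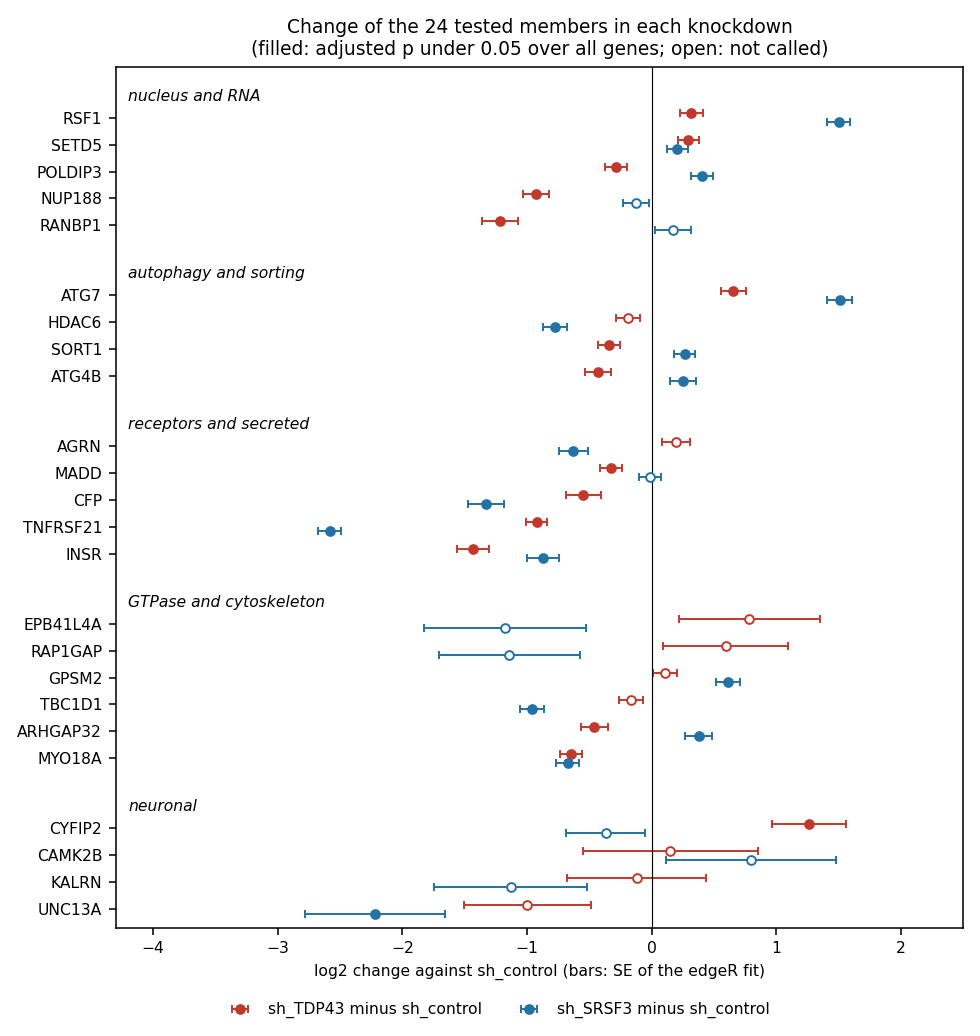
Log2 change of the 24 tested members against sh_control in sh_TDP43 (red) and sh_SRSF3 (blue), with the SE of the edgeR fit and filled points for called changes, grouped by role. RANBP1 and NUP188 lie at -1.22 and -0.93 in sh_TDP43 and at 0.17 and -0.13 in sh_SRSF3, TNFRSF21 lies farther left in sh_SRSF3 at -2.58, and RSF1 and ATG7 lie farther right in sh_SRSF3.

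Among the 5 members that act in the nucleus or on RNA, 2 rose and 3 fell in sh_TDP43, and in sh_SRSF3 3 rose and 2 were not called. Over all genes 20.7% rose and 24.1% fell in sh_TDP43, and 32.5% rose in sh_SRSF3. Neither rise in sh_TDP43 was called without sh_TDP43 replicate 1 or without replicate 2, and 2 of the 3 falls were. RANBP1 (GRCh37 chromosome 22, 20103461 to 20114880), a partner of the transport GTPase Ran, was at 81.0 and 60.3 CPM in sh_TDP43, 202 and 168 in sh_SRSF3, and 184 and 144 in sh_control. Both sh_TDP43 libraries lay below all 4 others, while sh_SRSF3 and sh_control overlapped. RANBP1 fell by 1.22 in sh_TDP43 on the log2 scale (SE 0.15, edgeR adjusted p = 1.72e-05) and its change in sh_SRSF3 was 0.17 (SE 0.14, adjusted p = 0.3). NUP188 (chromosome 9, 131709978 to 131769375), a scaffold protein of the nuclear pore, was at 122 and 104 CPM in sh_TDP43, 210 and 185 in sh_SRSF3, and 216 and 215 in sh_control. It fell by 0.93 in sh_TDP43 (SE 0.10, adjusted p = 8.73e-06), and the change in sh_SRSF3 was -0.13 (adjusted p = 0.288). With upper-quartile scaling NUP188 was called lower in sh_SRSF3 too, at -0.28 (adjusted p = 0.0256).

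RSF1 (chromosome 11, 77371041 to 77532063), a subunit of a chromatin remodeller, was at 127 and 129 CPM in sh_TDP43, 278 and 305 in sh_SRSF3, and 98.8 and 107 in sh_control. The 3 groups did not overlap, and sh_SRSF3 stood highest. RSF1 rose by 1.5 in sh_SRSF3 on the log2 scale (SE 0.09, edgeR adjusted p = 9.32e-09) and by 0.32 (SE 0.09, adjusted p = 0.0127) in sh_TDP43. The sh_TDP43 call was lost without sh_TDP43 replicate 1 (adjusted p = 0.0501), sh_TDP43 replicate 2 (0.0668) or sh_control replicate 1 (0.0644). POLDIP3 (chromosome 22, 42979727 to 43010968), a factor of mRNA export and translation whose exon use depends on TDP43, was at 87.7 and 84.4 CPM in sh_TDP43, 134 and 144 in sh_SRSF3, and 106 and 104 in sh_control. It lay on opposite sides of sh_control, falling by 0.29 in sh_TDP43 (adjusted p = 0.0182) and rising by 0.41 in sh_SRSF3 (adjusted p = 0.00105). The fall was no longer called without sh_TDP43 replicate 1 (adjusted p = 0.0541), sh_TDP43 replicate 2 (0.129) or with upper-quartile scaling (0.088). SETD5, a chromatin regulator with a SET domain, was at 215 and 214 CPM in sh_TDP43, 200 and 205 in sh_SRSF3, and 172 and 178 in sh_control. Its rise of 0.29 in sh_TDP43 (adjusted p = 0.0132) was lost without sh_TDP43 replicate 1 (0.0604) or 2 (0.0563). Its rise of 0.21 in sh_SRSF3 (adjusted p = 0.0477) was lost on leaving out any 1 of the 6 libraries, with adjusted p-values of 0.0527 to 0.238.

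Of the 4 autophagy and sorting members, 1 rose and 2 fell in sh_TDP43, and 3 rose and 1 fell in sh_SRSF3. Such small groups are a description, beside 20.7% of all genes higher and 24.1% lower in sh_TDP43 and 32.5% and 34.4% in sh_SRSF3. With a library left out, 1 or 2 of the 3 rises in sh_SRSF3 were called, and 1 with upper-quartile scaling. ATG7 (chromosome 3, 11313995 to 11599139), the activating enzyme of the autophagy conjugation systems, was at 32.2 and 32.6 CPM in sh_TDP43, 59.0 and 58.1 in sh_SRSF3, and 20.7 and 20.5 in sh_control. The 3 groups did not overlap, with both knockdowns above sh_control. ATG7 rose by 0.66 in sh_TDP43 on the log2 scale (SE 0.10, edgeR adjusted p = 0.000159) and by 1.51 (SE 0.10, adjusted p = 2.07e-08) in sh_SRSF3. Of its exon bases 18.1% overlap VGLL4 on the opposite strand, and the counting used no strand, so reads of the 2 genes there cannot be told apart. ATG4B, the protease that prepares ATG8 proteins for the same pathway, was at 30.6 and 30.3 CPM in sh_TDP43, 51.5 and 46.4 in sh_SRSF3, and 42.2 and 40.1 in sh_control. It fell by 0.43 in sh_TDP43 (adjusted p = 0.00393). Its rise of 0.25 in sh_SRSF3 (adjusted p = 0.0441) was lost on leaving out any 1 library, with adjusted p-values of 0.0554 to 0.271.

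SORT1 (chromosome 1, 109852190 to 109940573), which encodes sortilin, a sorting receptor that takes up progranulin, was at 138 and 142 CPM in sh_TDP43, 207 and 219 in sh_SRSF3, and 176 and 179 in sh_control. It fell by 0.34 in sh_TDP43 on the log2 scale (SE 0.09, edgeR adjusted p = 0.00562) and rose by 0.26 in sh_SRSF3 (SE 0.09, adjusted p = 0.0158). The rise was lost without sh_SRSF3 replicate 2 (adjusted p = 0.155) and with upper-quartile scaling (0.275). HDAC6, a cytoplasmic deacetylase of tubulin, was at 75.0 and 69.8 CPM in sh_TDP43, 49.5 and 46.9 in sh_SRSF3, and 78.3 and 86.9 in sh_control. It fell by 0.78 in sh_SRSF3 (adjusted p = 7.67e-06), and its change of -0.19 in sh_TDP43 was not called (adjusted p = 0.123).

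Of the 5 receptor, signalling and secreted members, 4 fell in sh_TDP43, where 24.1% of all genes fell, and 4 fell in sh_SRSF3, where 34.4% did, with 1 not called in each. INSR (chromosome 19, 7112266 to 7294045), the insulin receptor, was at 15.1 and 13.8 CPM in sh_TDP43, 23.1 and 19.6 in sh_SRSF3, and 41.8 and 36.3 in sh_control. All 4 knockdown libraries lay below both controls, with sh_TDP43 lowest. INSR fell by 1.43 in sh_TDP43 on the log2 scale (SE 0.13, edgeR adjusted p = 1.56e-06) and by 0.87 (SE 0.13, adjusted p = 3.78e-05) in sh_SRSF3. TNFRSF21 (chromosome 6, 47199268 to 47277641) was at 112 and 117 CPM in sh_TDP43, 35.6 and 36.8 in sh_SRSF3, and 218 and 216 in sh_control. The groups lay far apart, with sh_SRSF3 the lowest. TNFRSF21 fell by 0.92 in sh_TDP43 (SE 0.09, adjusted p = 1.96e-06) and by 2.58 (SE 0.09, adjusted p = 1.58e-10) in sh_SRSF3, which is 5.99-fold lower.

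CFP, the gene of properdin, which stabilises a complement convertase, was at 29.1 and 38.3 CPM in sh_TDP43, 19.5 and 19.7 in sh_SRSF3, and 44.0 and 54.4 in sh_control. It fell by 1.33 in sh_SRSF3 on the log2 scale (SE 0.14, edgeR adjusted p = 1.79e-06). Its fall of 0.55 in sh_TDP43 (adjusted p = 0.00577) was lost without sh_TDP43 replicate 1 (0.0918) or sh_control replicate 2 (0.0627). MADD, a death-domain protein that activates Rab GTPases, was at 106 and 104 CPM in sh_TDP43, 129 and 132 in sh_SRSF3, and 132 and 133 in sh_control. It fell by 0.33 in sh_TDP43 (adjusted p = 0.00692; 0.0587 without sh_TDP43 replicate 2), while its change in sh_SRSF3 was -0.01 (SE 0.09, adjusted p = 0.892). AGRN was at 478 and 534 CPM in sh_TDP43, 292 and 280 in sh_SRSF3, and 494 and 390 in sh_control. It fell by 0.63 in sh_SRSF3 (adjusted p = 0.000222). Its change of 0.19 in sh_TDP43, whose libraries overlapped the controls, was not called (adjusted p = 0.178), but was 0.38 without sh_control replicate 1 (adjusted p = 0.014) and 0.29 with upper-quartile scaling (adjusted p = 0.0482).

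The 6 members in the next group act on GTPases, cell shape or the spindle, and 2 of them fell and 4 were not called in sh_TDP43, where 24.1% of all genes fell. In sh_SRSF3 2 rose and 2 fell, beside 32.5% and 34.4% of all genes. MYO18A, an unconventional myosin, was at 90.7 and 84.8 CPM in sh_TDP43, 86.9 and 84.9 in sh_SRSF3, and 133 and 141 in sh_control. It fell by 0.64 in sh_TDP43 on the log2 scale (SE 0.09, edgeR adjusted p = 5.81e-05) and by 0.67 (SE 0.09, adjusted p = 1.35e-05) in sh_SRSF3, and 9.3% of its exon bases overlap TIAF1. ARHGAP32, a GTPase-activating protein, was at 37.7 and 33.8 CPM in sh_TDP43, 59.5 and 68.3 in sh_SRSF3, and 46.9 and 51.6 in sh_control. The knockdowns lay on opposite sides of sh_control, with a fall of 0.46 in sh_TDP43 (adjusted p = 0.00356; 0.061 without sh_TDP43 replicate 2). The rise of 0.38 in sh_SRSF3 (adjusted p = 0.00712) was lost without sh_SRSF3 replicate 2 (0.118) and with upper-quartile scaling (0.0839). TBC1D1, a Rab GTPase-activating protein, was at 79.4 and 75.3 CPM in sh_TDP43, 43.3 and 46.0 in sh_SRSF3, and 91.7 and 82.0 in sh_control. It fell by 0.96 in sh_SRSF3 (adjusted p = 9.64e-07), and its change in sh_TDP43 was -0.17 (adjusted p = 0.172).

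GPSM2, which orients the mitotic spindle, was at 85.3 and 73.2 CPM in sh_TDP43, 114 and 112 in sh_SRSF3, and 72.7 and 74.5 in sh_control. It rose by 0.62 in sh_SRSF3 on the log2 scale (SE 0.10, edgeR adjusted p = 6.36e-05), and sh_TDP43 overlapped sh_control. Its counts are uncertain, since 34.6% of its exon bases overlap CLCC1 on the opposite strand. EPB41L4A, a FERM-domain protein, and RAP1GAP, an inactivator of the GTPase Rap1, stayed at or below 1.28 CPM in every library and were not called against sh_control. Without sh_control replicate 1, EPB41L4A was called lower in sh_SRSF3 at -1.76 (adjusted p = 0.0287), and 19.3% of its exon bases overlap an antisense gene.

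Of the 4 neuronal members tested, 1 rose in sh_TDP43 and 1 fell in sh_SRSF3, beside 20.7% and 34.4% of all genes. CYFIP2 (chromosome 5, 156693089 to 156822603), a subunit of the WAVE complex that drives actin branching, was at 7.57 and 5.88 CPM in sh_TDP43, 2.91 and 1.44 in sh_SRSF3, and 3.12 and 2.48 in sh_control. Both sh_TDP43 libraries lay above the other 4. CYFIP2 rose by 1.26 in sh_TDP43 on the log2 scale (SE 0.30, edgeR adjusted p = 0.00335). The change in sh_SRSF3 was -0.37 (adjusted p = 0.316), and -0.96 without sh_SRSF3 replicate 1 (adjusted p = 0.0255) against 0.04 without sh_SRSF3 replicate 2 (adjusted p = 0.914). UNC13A (chromosome 19, 17712137 to 17799174), which readies synaptic vesicles for release, was at 1.14 and 1.87 CPM in sh_TDP43, 0.451 and 0.831 in sh_SRSF3, and 1.26 and 4.75 in sh_control. The controls were 47 and 182 reads, so the comparison rests on which control is used. UNC13A fell by 2.22 in sh_SRSF3 (SE 0.56, adjusted p = 0.00301), but the change was -0.97 without sh_control replicate 2 (adjusted p = 0.15). Its change in sh_TDP43 was -0.997 (SE 0.51, adjusted p = 0.127), -1.65 without sh_control replicate 1 (adjusted p = 0.00782) and 0.25 without sh_control replicate 2 (adjusted p = 0.744), and with no filter on low counts the adjusted p was 0.00904. KALRN and CAMK2B were not called in either knockdown. The summed neuron markers given above were highest in sh_SRSF3, where SYT1 and SYP made up most of the sum, at 13.4 and 8.52 CPM. The list was split: of 6 tested, 3 were called higher and 1 lower in sh_SRSF3, beside 32.5% and 34.4% of all genes. The lower one was GRIN1, at 0 CPM in sh_SRSF3 and 0.835 in sh_control. The part of these markers in the results was not tested.

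The direct contrast, sh_TDP43 minus sh_SRSF3, called 8 of the 24 members higher and 11 lower, that is 33.3% and 45.8%, where 65.5% of all genes were called, 33.5% higher and 32.0% lower. Lower in sh_TDP43 were RANBP1, with a log2 difference of -1.39 (SE 0.15, edgeR adjusted p = 1.57e-06), RSF1 with -1.18 (adjusted p = 9.11e-08), ATG7 with -0.85 (adjusted p = 4.48e-06) and NUP188 with -0.80. TNFRSF21 was higher in sh_TDP43 by 1.66 (SE 0.09, adjusted p = 3.82e-09) and CYFIP2 by 1.63 (SE 0.31, adjusted p = 0.000316). POLDIP3, SORT1, ATG4B and ARHGAP32 differed between the knockdowns by -0.61 to -0.84 and were lower in sh_TDP43. INSR differed by -0.56 (adjusted p = 0.00197; 0.0504 with upper-quartile scaling). For MYO18A the difference was 0.03 (SE 0.09, adjusted p = 0.78), and it was called at 0.28 with upper-quartile scaling (adjusted p = 0.0138). With that scaling, which moves the median of all genes by 0.25 in this contrast, 11 members were called higher and 9 lower, beside 42.9% and 22.5% of all genes. Fewer of all genes were called with a library of either group left out, and some member calls were then lost. EPB41L4A at 1.96 was lost without sh_TDP43 replicate 1 or sh_SRSF3 replicate 2, and RAP1GAP at 1.74 without sh_TDP43 replicate 2 or sh_SRSF3 replicate 2. MADD at -0.31 was lost without sh_SRSF3 replicate 2, and was -0.065 with upper-quartile scaling (edgeR adjusted p = 0.518). With each library left out the differences ranged over 1.66 to 2.23 for EPB41L4A, 1.33 to 2.19 for RAP1GAP and -0.33 to -0.28 for MADD. CAMK2B, not called at -0.65, was called at -2.36 without sh_TDP43 replicate 2 (adjusted p = 0.0369). UNC13A, not called at 1.22 (adjusted p = 0.0771), was called at that size without either control library (adjusted p = 0.0206 and 0.0337), with no filter on low counts (0.00253) and with the 2 groups fitted alone (0.0296), and at 1.47 with upper-quartile scaling (0.0395).

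With Flag-TDP43, 1 of the 17 members with a mean of at least 1 FPKM over RIP and input was recovered at least 2-fold, and 2 were depleted at least 2-fold. Over all 9874 such genes 20.4% were recovered and 18.2% depleted, against 5.88% and 11.8% of these members. A second table covers the same libraries with a normalised signal of unstated unit. By that signal 15.8% of members and 14.2% of all genes were recovered. The 15.8% counts UNC13A, which reached the mean limit of 1 through its RIP value alone and could only appear as recovered. Without UNC13A the share was 11.1%. The 14.2% was not filtered in that way, so these shares are not compared. In the FPKM table, with an input of at least 1 FPKM, 1 of 17 members and 16.0% of all genes were recovered. Recovery was log2 of RIP over input after adding 0.1 FPKM. Its median was 0.034 over the members and 0.037 over all genes. The recovered member was TNFRSF21, at 320.1 FPKM in the RIP and 29.04 FPKM in the input. Its log2 recovery of 3.46 lay above 98.4% of genes. In the second table TNFRSF21 was at 383 in the RIP and 40.1 in the input, a log2 recovery of 3.25 and above 99.4% of genes.

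MADD was next at 7.21 FPKM in the RIP and 3.71 in the input, a log2 recovery of 0.94 in the FPKM table and 1.01 in the second table. INSR, which fell most in the sh_TDP43 cells, was at 2.58 FPKM in the RIP and 2.10 FPKM in the input, a log2 recovery of 0.28, and at -0.03 in the second table. RANBP1 was at 17.0 FPKM in the RIP and 18.1 FPKM in the input, and SORT1 at 6.63 and 6.47, so both lay near their input. POLDIP3 was at 9.22 FPKM in the RIP and 11.1 FPKM in the input. Apart from 2 depleted members, the others above the limit lay within 2-fold of their input, with log2 recoveries of -0.85 for HDAC6 to 0.65 for RSF1. The depleted members were CFP, at 4.06 FPKM in the RIP and 10.4 in the input, and TBC1D1, at 2.62 and 6.58. CFP was depleted in both tables, at log2 -1.33 and -1.31, whereas TBC1D1 was at -1.29 in the FPKM table and -0.21 in the second one. HDAC6 was at -0.85 in the FPKM table and -1.02 in the second one.

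UNC13A differed between the tables. It was at 0.131 FPKM in the Flag-TDP43 RIP and listed at 0 in the input, under the limit of 1 FPKM, while the second table gave 4.38 in the RIP and 0.200 in the input. Its log2 recovery in the second table was 3.90. With its input under 1, UNC13A reached the mean limit of 1 through its RIP value alone, so it could only appear as recovered there, and its place among the genes is not read. By the signal, 3 of 19 members passed 2-fold (UNC13A, TNFRSF21 and MADD), or 15.8%, where 14.2% of all genes did. Without UNC13A it was 2 of 18, or 11.1%, a share with no matching one for all genes. Also by the signal, 2 were depleted (CFP and HDAC6), or 10.5%, where 18.2% of all genes were. The other 8 neuronal members stayed under the limit in both tables.

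With Flag-SRSF3, 2 of 17 members, or 11.8%, were recovered at least 2-fold and none was depleted at least 2-fold, where 20.1% of 9932 genes were recovered and 10.1% depleted. GPSM2 was at 6.51 FPKM in the RIP and 2.13 in the input, a log2 recovery of 1.57. The second table gave GPSM2 25.7 in the RIP and 33.5 in the input, which is -0.38, so its direction depends on the table. MADD was at 4.71 FPKM in the RIP and 2.16 in the input, a log2 recovery of 1.09, and 0.65 in the second table. CFP was the only member past 2-fold recovery in the second table, at 1.02, where 11.9% of all genes were past it. RSF1 was the only one depleted there, at -1.42 (-0.36 in the FPKM table), where 9.71% of all genes were.

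TNFRSF21 was at 52.8 FPKM in the Flag-SRSF3 RIP and 32.1 FPKM in its input, a log2 recovery of 0.71. Its Flag-TDP43 recovery was therefore larger by 2.74 on the log2 scale in the FPKM table and by 2.64 in the second one. UNC13A had a signal of 0.304 in the Flag-SRSF3 RIP and 0.128 in its input. CFP, depleted with Flag-TDP43, was at 15.7 FPKM in the Flag-SRSF3 RIP and 8.92 FPKM in its input, a log2 recovery of 0.80. These differences between the proteins come from 1 library of each kind and have no replicate check.

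**Figure D3:**
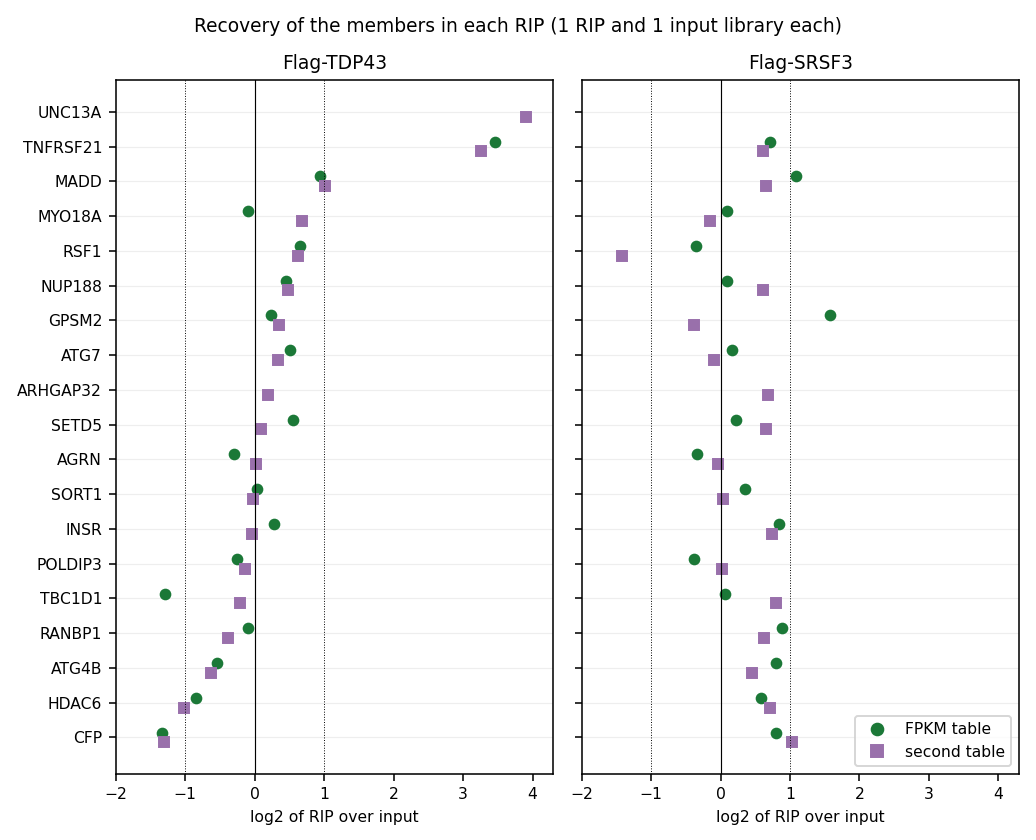
Log2 recovery (RIP over input) of the members above the limit, with Flag-TDP43 on the left and Flag-SRSF3 on the right, as circles for the FPKM table and squares for the second table, and dotted lines at 2-fold. TNFRSF21 stands at 3.46 and 3.25 with Flag-TDP43 and at 0.71 and 0.61 with Flag-SRSF3, and UNC13A stands at 3.90 in the second table with Flag-TDP43.

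**Figure D4:**
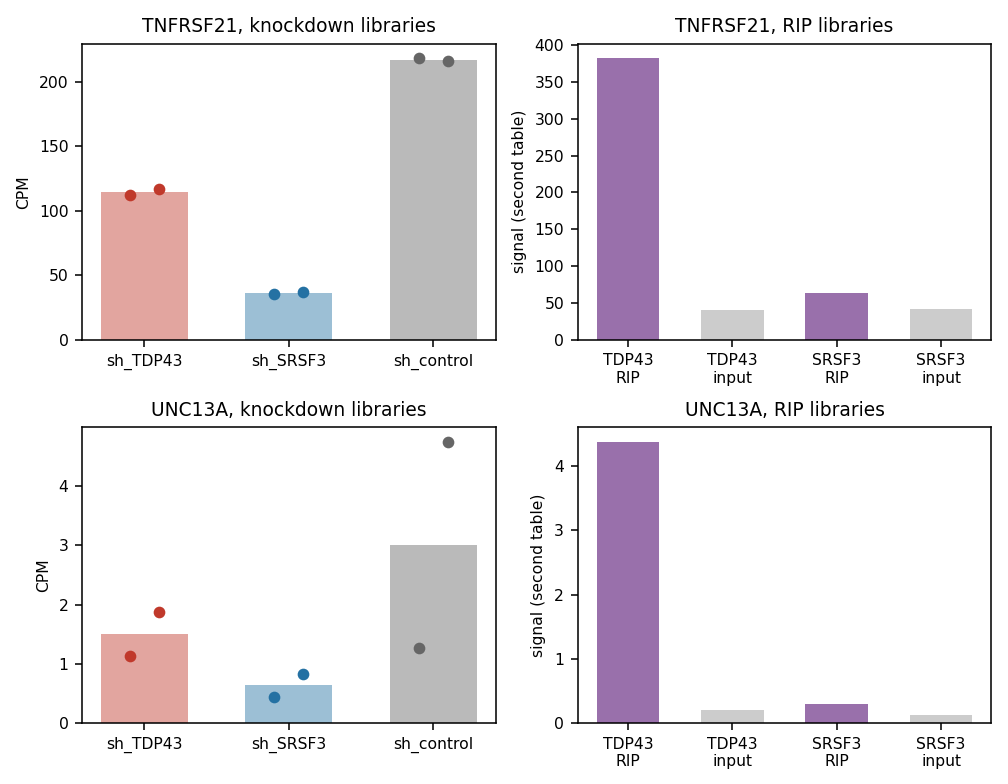
TNFRSF21 (top) and UNC13A (bottom), with CPM in the knockdown libraries on the left (bars are means, points are the 2 libraries) and the signal of the second table in the 4 RIP and input libraries on the right. The TNFRSF21 signal was 383 in the Flag-TDP43 RIP and 40.1 in its input, and the UNC13A controls differed at 1.26 and 4.75 CPM.

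Further known TDP43 targets outside the members showed both directions. Of 15 tested, 4 rose and 5 fell in sh_TDP43, or 26.7% and 33.3% beside 20.7% and 24.1% of all genes, with a median log2 change of -0.23. In sh_SRSF3 6 rose and 2 fell, so 53.3% were called where 66.9% of all genes were. PFKP, a phosphofructokinase of glycolysis, averaged 107 ± 20.7 CPM in sh_TDP43, 298 ± 23.1 in sh_SRSF3 and 534 ± 62.5 in sh_control (SD, n = 2 each). Its log2 change in sh_TDP43 was -2.32 (edgeR adjusted p = 2.38e-08). It was depleted with Flag-TDP43, at 15.7 FPKM in the RIP and 71.5 FPKM in the input. GRN, which encodes the sortilin ligand progranulin, averaged 345 ± 54.4 CPM in sh_TDP43, 212 ± 17.6 in sh_SRSF3 and 222 ± 29.6 in sh_control, and rose in sh_TDP43 by 0.64 (adjusted p = 0.000821). GRN was recovered with Flag-TDP43, at 58.4 FPKM in the RIP and 28.0 FPKM in the input. BCL2L11, a promoter of apoptosis, fell by 1.29 in sh_TDP43, and BRD8, a chromatin protein, rose by 0.59. AARS, an alanyl-tRNA synthetase, and STAG2, a cohesin subunit, rose in sh_SRSF3 by 1.61 and 1.51.

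Cryptic exons often carry stop codons that send a transcript to nonsense-mediated decay, so the factors of that pathway were listed too. Of 14 tested, 3 rose and 4 fell in sh_TDP43, or 21.4% and 28.6%, near the 20.7% and 24.1% of all genes. In sh_SRSF3 10 rose and 2 fell, or 71.4% and 14.3%, beside 32.5% and 34.4% of all genes, and 7 to 10 rose with each library left out. CASC3, of the exon junction complex, fell in both, by 1.55 and 2.15 on the log2 scale, while UPF2 rose by 0.59 and 0.53. UPF3B and SMG1 rose by 1.44 and 1.22 in sh_SRSF3. Among 12 other RNA-binding proteins that work with TDP43 or repress cryptic exons, 9 fell and 3 were not called in sh_TDP43, and 5 rose and 7 fell in sh_SRSF3. The falls in sh_TDP43 were 75% of these genes beside 24.1% of all genes. With upper-quartile scaling 6 fell in sh_TDP43, beside 19.8% of all genes. In sh_SRSF3 41.7% rose and 58.3% fell, beside 32.5% and 34.4%. The 5 rises in sh_SRSF3 were 3 without sh_SRSF3 replicate 1 and 3 with upper-quartile scaling. PTBP1, the polypyrimidine tract binding protein, averaged 254 ± 18.3 CPM in sh_TDP43, 134 ± 18.8 in sh_SRSF3 and 621 ± 70.1 in sh_control (SD, n = 2 each). PTBP1 fell in both knockdowns, with log2 changes of -1.29 in sh_TDP43 (edgeR adjusted p = 1.29e-06) and -2.22 in sh_SRSF3 (adjusted p = 2.62e-09). These counts in sh_TDP43 moved with 1 library: 5 of the RNA-binding proteins fell without sh_TDP43 replicate 2 and 5 without sh_control replicate 1. Of the decay factors, 1 rose and 2 fell without sh_TDP43 replicate 1, and 2 rose and 1 fell without sh_TDP43 replicate 2, while over all 6 libraries left out in turn the falls ranged over 1 to 6. Without sh_TDP43 replicate 1 or 2, fewer of the further TDP43 targets were called lower.

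The median member was longer than the median tested gene, though a long span was not common to all of them. The median distance of the members from gene start to end was 73.15 kb, or 84.33 kb over the 24 tested, and 29.68 kb over all tested genes. Spans over 100 kb were found in 10 of 29 members, or 34.5%, and in 18.6% of tested genes. KALRN was the longest, at 646.3 kb, while CFP at 6.1 kb, RANBP1 at 11.4 kb, ACTL6B at 13.4 kb and HDAC6 at 23.6 kb lay below the median of tested genes. Annotated exons summed to a median of 8.366 kb in the members and 4.698 kb in tested genes.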

How the data were processed

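For the knockdowns the authors deposited raw counts, made by featureCounts 1.4.6-p5 over exons without a strand or read-pair option, per the file headers, so 2 counts can be 1 fragment. The deposited RIP table holds FPKM, and log2 fold changes by the authors. Another deposited table holds a signal per gene, normalised by the authors, whose unit and tool are not given in the sources used here. As for tools, the submitters' processing notes name HISAT2 2.0.5, STAR 2.5.2a, StringTie 1.3.0 and Cufflinks, with no role for any of them, and the build GRCh37. Coordinates are GRCh37, from the count table.

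The members and gene lists were chosen with earlier results of these data known. All 29 members are named; of the other lists, at most 4 called genes per comparison with the largest changes and a mean of at least 1 CPM, plus PFKP and GRN. Of the count columns, 2 match no label and were not used, so the combined knockdown was not analysed and fits held 6 libraries. Counts were fitted with edgeR 4.0.16 in R 4.3.3 (TMM, filterByExpr, quasi-likelihood F-test, two-sided, no covariates), leaving 15026 genes, and calls are at an adjusted p under 0.05. The filter looks at each group, so a member can pass it through the group where it is high. Replicates differed by more than sampling noise (mean chi-square per gene of at least 12.02). RIP recovery is log2((RIP + 0.1)/(input + 0.1)) for genes with a mean of at least 1 FPKM, with no test. Alternatives were upper-quartile and RLE scaling, DESeq2 1.42.0, no filter, a replicate block, 2 groups alone, each library left out, and for RIP a pseudocount of 1, other filters, the deposited log2 fold changes and, chosen after seeing the data, the second table.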

Additional observations from a re-analysis of the deposited data

Results flagged for a closer look

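The following 2 values of the second RIP table were picked by a rule, in genes that the FPKM table left under the limit of 1 FPKM. The rule asked for a RIP signal of at least 1 and at least 2-fold above the input. Standing above the input was thus fixed by the choice and is not a result. UNC13A also reached the mean limit of the second table through its RIP value alone. UNC13A had a signal of 4.38 in the Flag-TDP43 RIP and 0.200 in its input, while the FPKM table listed it at 0.131 in the RIP and 0 in the input. CYFIP2 had a signal of 1.69 in the Flag-SRSF3 RIP and 0.279 in its input, where the FPKM table had 0.0281 in the RIP and 0.0054 in the input. The mean of the CYFIP2 signals was also under the limit of 1 used for the second table. With Flag-TDP43, CYFIP2 had a signal of 0.490 in the RIP and 0.712 in the input. Neither value has a replicate.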

How the results depend on the processing

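The 72 log2 changes of the members were recomputed under 12 settings per comparison. Of the 50 called changes, 35 stayed called under every setting and 0 reversed. By comparison these were 9 of 15 in sh_TDP43 against sh_control, 11 of 16 in sh_SRSF3 against sh_control and 15 of 19 between the knockdowns. With each library left out in turn, the count of called members in sh_TDP43 was lowest without sh_TDP43 replicate 2. The count over all genes was lowest there too, so it is not read as a result about the members. With a replicate block 15, 17 and 20 members were called in the same order, beside 7672, 10565 and 10413 of all 15026 genes tested. Without the block 6728, 10045 and 9842 of all genes were called. The labels do not say that numbers pair libraries, and same-numbered libraries deviated together weakly, with a correlation across genes of 0.12, 0.0755 and 0.0879. The block added RANBP1 in sh_SRSF3 (0.18, edgeR adjusted p = 0.0499) and UNC13A between the knockdowns (1.27, adjusted p = 0.0102).

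Changes that reversed were uncalled. MADD in sh_SRSF3 was at -0.014, and at 0.0036 with RLE scaling and 0.0036 with DESeq2. With each library left out it ranged over -0.046 to 0.0014. For the other reversed changes the same range was -0.0081 to 0.22 for GPSM2, -1.57 to 0.91 for CAMK2B, -0.44 to 0.30 for KALRN and -1.65 to 0.25 for UNC13A in sh_TDP43, and -0.96 to 0.042 for CYFIP2 in sh_SRSF3. Between the knockdowns it was -2.36 to 0.11 for CAMK2B and -0.019 to 0.095 for MYO18A. The cause was not tested.

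The Flag-TDP43 count of 1 recovered member, beside 20.4% of all genes, was 2 with no filter (18.1%) and 3 in the second table (14.2%). UNC13A is among the 2 and the 3, and passed both times through its RIP value alone. The Flag-SRSF3 count of 2, beside 20.1% of all genes, was 3 with no filter (18.9%). It was 1 with a pseudocount of 1 (14.5%) and 1 in the second table (11.9%). GPSM2 with Flag-SRSF3 reversed to -0.38 in the second table. Alternatives for the combined knockdown were not run. Members under about 1 CPM rest on few reads, and the RIPs have no replicates.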
